A study of Homo sapiens with 12 samples.

Results

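The BCL2 family of apoptosis regulators was followed in the human breast cancer line MDA-MB-231 during stimulation with PMA and Ionomycin. Its 10 members were BCL2, BCL2L1, MCL1, BCL2A1, BCL2L11, PMAIP1, BBC3, BID, BAX and BAK1. They were chosen by name, as the rows of the deposited expression table that carry one of these symbols, and each symbol had a single row. The table holds 24331 features in all, and 11256 of these, all 10 members included, had a mean of at least 1 FPKM and were tested. BCL2A1 reached that mean only through the stimulated libraries.

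Proteins of the BCL2 family decide at the outer mitochondrial membrane whether a cell starts apoptosis. BAX and BAK1 are the effectors, which open the membrane and let cytochrome c out. The survival proteins, here BCL2, BCL2L1 (BCL-xL), MCL1 and BCL2A1 (BFL-1), hold the effectors in check. The BH3-only proteins, here BCL2L11 (BIM), PMAIP1 (NOXA), BBC3 (PUMA) and BID, bind the survival proteins or switch on the effectors. Transcripts of several members, MCL1, BCL2A1 and PMAIP1 among them, are known to turn over fast and to follow growth factor, cytokine and stress signals.

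WT cells and ΔCRE cells, labelled KO, were compared at 0, 6 and 24 h of PMA/Ionomycin, with 2 libraries in each of the 6 groups and 12 libraries in all. PMA is a phorbol ester that activates protein kinase C, and Ionomycin is an ionophore that lets calcium into the cell. ΔCRE cells lack part of a core-regulatory element in the promoter of ETS1, which codes for a transcription factor. CRISPR/Cas9 removed the stretch of the element that holds NFAT and NF-κB sites, and the rest of it was kept. How many clones the ΔCRE libraries come from is not given in the sources used here, so the deletion and a clone cannot be told apart. The 2 libraries of a group are stated to be biological replicates. P-values weigh a change against the spread between libraries, pooled over all groups and drawn toward a trend over features. In bulk RNA, fewer cells expressing a gene and less RNA per cell cannot be told apart.

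The library labelled ΔCRE 0 h replicate 1 stood apart from the other 11 and entered no test here. Summed FPKM was between 566255 and 651080 in the 11 libraries and 1.42e+06 in ΔCRE 0 h replicate 1. The correlation between replicates of log2(FPKM + 1) across features was 0.980 to 0.986 outside ΔCRE 0 h, where it was 0.774. The 4 markers that MDA-MB-231 cells are known for (VIM, CD44, AXL and CAV1) lay between 46.6 and 2539 FPKM in the 11 libraries. Of 4 genes known to be low or absent in this line (ESR1, PGR, CDH1 and EPCAM), EPCAM alone exceeded 1 FPKM there, with a highest value of 3.38 FPKM. In ΔCRE 0 h replicate 1 the same 4 genes summed to 1191 FPKM. EPCAM made up 1139 of it and CDH1 52.3, while ESR1 was at 0 and PGR at 0.0128 FPKM. In the same library 7 markers of gut epithelium summed to 3445 FPKM, against at most 0.318 FPKM in the other libraries. There 4 leukocyte markers summed to 25.5 FPKM, of which CD14 made up 24.0, against at most 0.645 FPKM elsewhere. For 3 fibroblast markers the sum was 17.7 FPKM, against at most 1.95 FPKM. VIM, CD44, AXL and CAV1 still summed to 1440 FPKM in it, against 1814 to 3119 FPKM in the other 11. ETS1 itself was at 24.0 and 23.7 FPKM in the WT libraries at 0 h, 139 and 145 FPKM at 6 h and 36.2 and 39.7 FPKM at 24 h. In ΔCRE cells ETS1 was at 16.5 FPKM at 0 h in replicate 2, at 62.8 and 62.2 FPKM at 6 h and at 29.3 and 30.7 FPKM at 24 h, lower than in WT cells at each time (adjusted p of 0.0131, 2.04e-05 and 0.0153). With ΔCRE 0 h represented by replicate 2 alone, the tests that involve it assume that this group varies like the others.

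Expression is given as FPKM, a count of fragments scaled to transcript length and library size, which allows levels to be compared between genes. Changes are differences in log2(FPKM + 1) with their standard error (SE), tested with limma over the 11 libraries. A change was called at a Benjamini-Hochberg adjusted p under 0.05 over all 11256 features. On this scale the change of a gene with a low FPKM is understated. Where 2 values are given for a group, replicate 1 comes first.

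The promoters of BCL2A1 and BBC3 are shown because these members had the largest ranges over the groups. Each is the 250 bases before the annotated start from RefSeq on GRCh38.p14, written 5′ to 3′ on the gene's strand, with matches to 5 searched motifs in capitals. RefSeq promoters were at hand for 9 of the 10 members, MCL1 not being among them. BCL2A1 covers chr15:79971197-79971446 and BBC3 covers chr19:47232668-47232917, both on the minus strand.
BCL2A1: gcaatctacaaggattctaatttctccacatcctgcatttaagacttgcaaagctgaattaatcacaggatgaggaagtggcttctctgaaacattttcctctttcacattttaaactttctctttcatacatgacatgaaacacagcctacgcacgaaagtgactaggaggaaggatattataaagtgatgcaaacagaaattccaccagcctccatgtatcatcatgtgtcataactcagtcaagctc
BBC3: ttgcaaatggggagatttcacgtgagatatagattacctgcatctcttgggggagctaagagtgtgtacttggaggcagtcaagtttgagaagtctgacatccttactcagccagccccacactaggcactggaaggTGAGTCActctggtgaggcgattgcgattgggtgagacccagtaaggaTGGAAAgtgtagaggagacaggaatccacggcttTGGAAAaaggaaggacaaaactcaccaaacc
The motifs, searched on both strands with N for any base, were the AP-1 letters TGANTCA, the NFAT letters TGGAAA, the NF-κB letters GGANTTNCC, the ETS letters CCGGAA and the cAMP response letters TGACGTCA. The window of BBC3 held 1 AP-1 match, which starts 113 bases before the annotated start, and NFAT matches starting 65 and 31 bases before it. No 2 matches overlapped. AP-1 letters occurred in 6.57% and NFAT letters in 18.01% of 35116 RefSeq promoter windows of the same length. NF-κB letters occurred in 3.67%, ETS letters in 14.53% and cAMP response letters in 1.65% of the windows. None of the 5 motifs was in the printed window of BCL2A1, which says only that these letters are not in it.

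Before stimulation, WT MDA-MB-231 cells carried mainly BCL2L1, BAX and MCL1 transcripts. The order of the mean FPKM at 0 h was BCL2L1, BAX, MCL1, BID, BAK1, PMAIP1, BCL2L11, BBC3, BCL2 and BCL2A1, and both WT libraries kept each member above the next. Over the 11 libraries, the mean of BCL2L1 lay above that of 93.07% of the features tested, and the mean of MCL1 above 92.93%. BAX lay above 90.57% of features, whereas BCL2 lay above only 2.28%. At 6 h MCL1 had moved to the top of the WT order, ahead of BCL2L1 in both libraries, and BCL2A1 had moved from last place to the level of BID, from which it was not separated in every library. At 24 h BCL2L1 again led in WT cells. In ΔCRE cells MCL1 led at 6 h and at 24 h in both libraries.

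**Figure D1:**
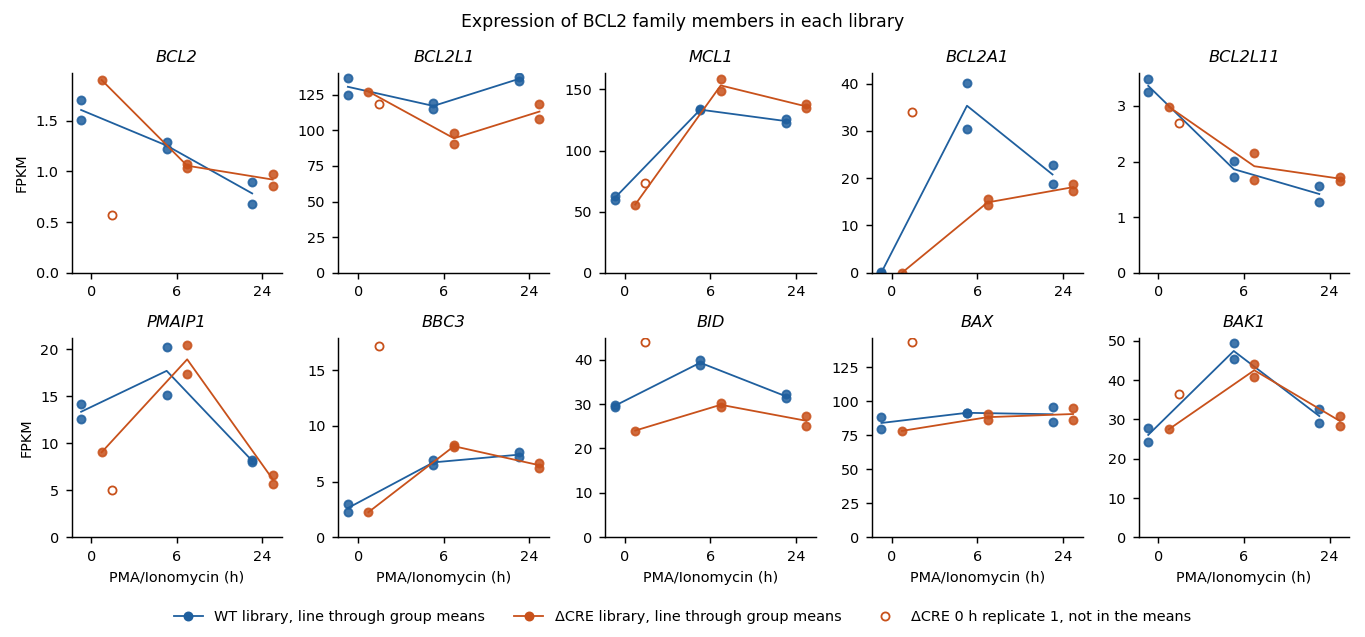
FPKM of each member (vertical axes, linear and starting at 0) against hours of PMA/Ionomycin, with 1 point per library, lines through group means, WT in blue and ΔCRE in orange. The open circle is ΔCRE 0 h replicate 1, which entered no mean. BCL2A1 goes from at most 0.15 FPKM at 0 h in the libraries tested to between 14.2 and 40.2 FPKM at 6 h, while BAX stays between 78.2 and 96.0 FPKM in the libraries tested.

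BCL2L1 codes for BCL-xL and lies on chromosome 20 of hg19 from 30252261 to 30310656. WT libraries had 136 and 125 FPKM at 0 h, 119 and 115 FPKM at 6 h and 138 and 134 FPKM at 24 h. ΔCRE libraries had 127 FPKM at 0 h, 98.1 and 90.6 FPKM at 6 h and 118 and 108 FPKM at 24 h. At 6 h and at 24 h both ΔCRE libraries were below both WT libraries. From 0 to 6 h BCL2L1 fell in ΔCRE cells (log2 change -0.43, SE 0.085, adjusted p 0.00625), and the WT change was -0.15 with an adjusted p of 0.104. The WT fall was called after quantile normalization (-0.27, adjusted p 0.00328), after rescaling to TPM (-0.28, adjusted p 0.00177) and with a replicate block (adjusted p 0.0141), so the WT and ΔCRE cells are not shown to differ in it. It rose between 6 and 24 h in WT cells by 0.22 (adjusted p 0.0325) and in ΔCRE cells by 0.26 (adjusted p 0.0142). Its WT rise lost the call when either WT 6 h or either WT 24 h library was left out, and the ΔCRE rise without ΔCRE 6 h replicate 2 or ΔCRE 24 h replicate 1.

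MCL1, a survival protein with a very short half-life, lies on chromosome 1 from 150547027 to 150552214. WT libraries had 59.5 and 62.7 FPKM at 0 h, 134 and 133 FPKM at 6 h and 123 and 125 FPKM at 24 h. ΔCRE libraries had 55.7 FPKM at 0 h, 148 and 158 FPKM at 6 h and 134 and 138 FPKM at 24 h. Every stimulated library of the 8 was above every unstimulated library tested. MCL1 rose from 0 to 6 h by 1.11 in WT cells (SE 0.052, adjusted p 1.11e-06) and by 1.44 in ΔCRE cells (SE 0.064, adjusted p 1.33e-06). It was still 2.03 times its 0 h mean in WT cells at 24 h and 2.44 times in ΔCRE cells. Between 6 and 24 h the change was -0.10 in WT cells with an adjusted p of 0.135, and MCL1 fell by 0.17 in ΔCRE cells with an adjusted p of 0.0257. That fall lost its call without ΔCRE 6 h replicate 2 or either ΔCRE 24 h library, and in separate fits (adjusted p 0.0752), and its log2 change was 0.00068 after quantile normalization.

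BCL2A1 codes for BFL-1, a survival protein known as a target of NF-κB, and lies on chromosome 15 from 80253232 to 80263643. It was listed at 0.15 and 0 FPKM in the WT libraries at 0 h and at 0 FPKM in the ΔCRE library at 0 h. WT libraries had 30.5 and 40.2 FPKM at 6 h and 18.8 and 22.8 FPKM at 24 h. ΔCRE libraries had 15.5 and 14.2 FPKM at 6 h and 17.4 and 18.8 FPKM at 24 h. All 8 stimulated libraries were above all unstimulated libraries tested, and at 6 h both ΔCRE libraries were below both WT libraries. In log2(FPKM + 1) the rise from 0 to 6 h was 5.07 in WT cells (SE 0.14, adjusted p 4.06e-08) and 3.99 in ΔCRE cells (SE 0.17, adjusted p 1.11e-06). No ratio is given, since values at 0 h were at or near 0. From 6 to 24 h BCL2A1 fell by 0.73 in WT cells (SE 0.14, adjusted p 0.00326), and the change in ΔCRE cells was 0.27 (SE 0.14, adjusted p 0.147). With a pseudocount of 0.1 the WT fall lost its call (adjusted p 0.106). Among all features, the patterns most like that of BCL2A1 over the 11 libraries were those of GLTP, NECAP2 and ZC3H12A, with Pearson's r of 0.994, 0.993 and 0.992 in log2(FPKM + 1). In all, 137 features had an r above 0.95 with it. The libraries share their stimulation times, so these correlations are descriptions of a common time course.

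BCL2, the founding survival member, lies on chromosome 18 from 60790579 to 60986613 and was low in these cells. WT libraries had 1.5 and 1.71 FPKM at 0 h, 1.22 and 1.29 FPKM at 6 h and 0.675 and 0.891 FPKM at 24 h. ΔCRE libraries had 1.90 FPKM at 0 h, 1.08 and 1.04 FPKM at 6 h and 0.860 and 0.979 FPKM at 24 h. The unstimulated libraries tested were above every stimulated library. BCL2 fell from 0 to 24 h in WT cells (log2 change -0.55, SE 0.099, adjusted p 0.00182) and in ΔCRE cells (-0.60, SE 0.12, adjusted p 0.00482). In ΔCRE cells it had fallen by 6 h (adjusted p 0.0156), whereas the WT change at 6 h was -0.21 with an adjusted p of 0.121. The 2 genotypes are not shown to differ in the change to 6 h, where the interaction was -0.29 and was not called. BCL2 fell between 6 and 24 h in WT cells by 0.34 (adjusted p 0.0214). That call was lost without WT 6 h replicate 1, WT 6 h replicate 2 or WT 24 h replicate 1 and after rescaling to TPM. In ΔCRE cells the limma change from 6 to 24 h was -0.10 (adjusted p 0.432), and it was called after quantile normalization (-0.29, adjusted p 0.0349).

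The summed FPKM of the 4 survival members was between 185 and 198 in the 3 unstimulated libraries tested and between 263 and 289 in the 8 stimulated ones. The ratio of MCL1 to BCL2L1, chosen after these values were seen, was 0.436 and 0.504 in the WT libraries at 0 h, 1.12 and 1.16 at 6 h and 0.892 and 0.933 at 24 h. In ΔCRE cells it was 0.438 at 0 h, 1.51 and 1.74 at 6 h and 1.14 and 1.28 at 24 h. At both stimulated times the ΔCRE libraries had the higher ratios. BCL2A1 made up between 10.7% and 13.9% of the survival sum in WT cells at 6 h and between 5.40% and 5.89% in ΔCRE cells. The ratio and the sum carry no test.

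**Figure D2:**
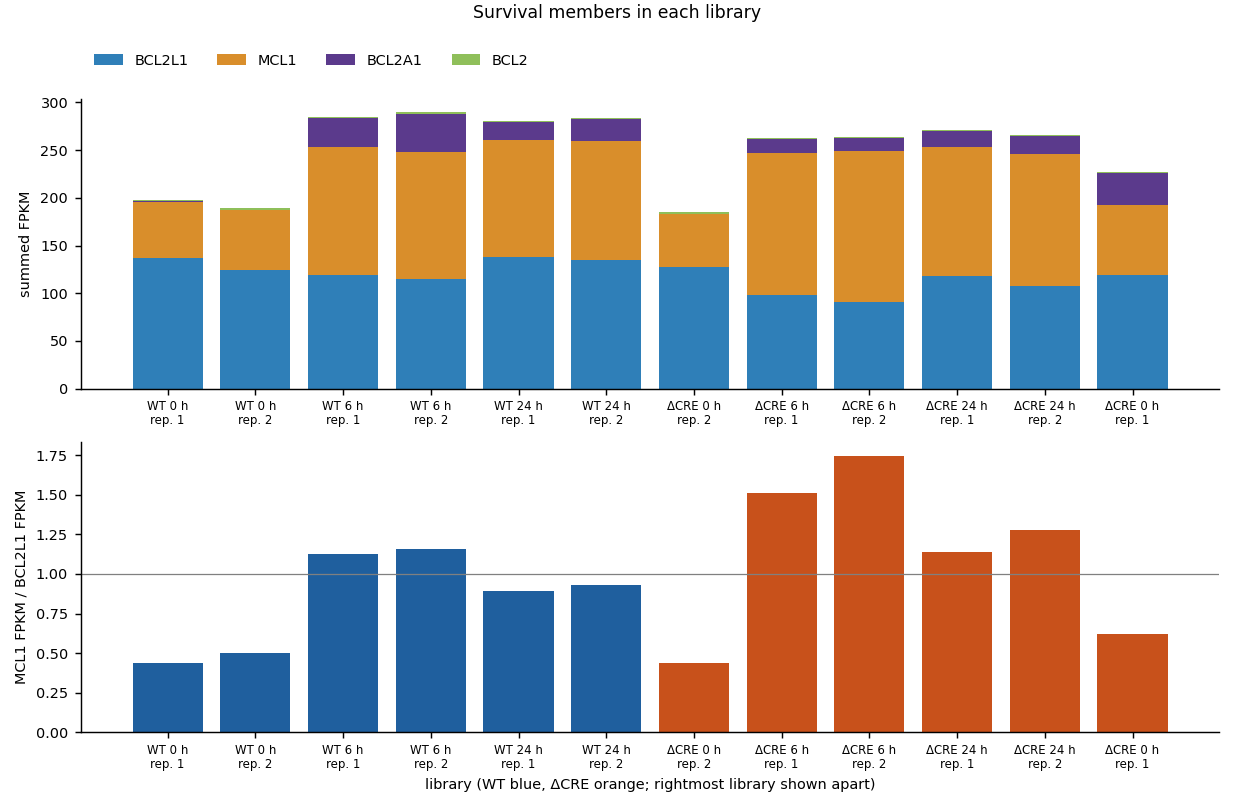
Upper panel, summed FPKM of the survival members in each library, with 1 stacked bar per library starting at 0. Lower panel, the ratio of MCL1 to BCL2L1 FPKM in the same libraries, with a line at equal levels. ΔCRE 0 h replicate 1 is drawn at the right of both panels. The ratio is under 1 in every unstimulated library and in WT cells at 24 h, and reaches 1.74 in ΔCRE cells at 6 h.

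Among the BH3-only members, BBC3 rose, BCL2L11 fell, PMAIP1 was high at 6 h and low at 24 h, and BID moved least. BBC3 codes for PUMA, which binds all survival members, and lies on chromosome 19 from 47724079 to 47736023. WT libraries had 2.96 and 2.29 FPKM at 0 h, 6.97 and 6.47 FPKM at 6 h and 7.62 and 7.21 FPKM at 24 h. ΔCRE libraries had 2.25 FPKM at 0 h, 8.08 and 8.26 FPKM at 6 h and 6.24 and 6.68 FPKM at 24 h. All 8 stimulated libraries were above the unstimulated libraries tested. BBC3 rose from 0 to 6 h by 1.10 in WT cells (SE 0.094, adjusted p 4.11e-05) and by 1.49 in ΔCRE cells (SE 0.12, adjusted p 3.78e-05). BBC3 fell between 6 and 24 h in ΔCRE cells by 0.30 (adjusted p 0.0288), and the WT change was 0.12 with an adjusted p of 0.309. The ΔCRE fall lost its call when any 1 of the 4 stimulated ΔCRE libraries was left out, and without the filter on low values (adjusted p 0.0554). The patterns nearest to that of BBC3 were those of VEGFC, MOGS and HDAC9 (Pearson's r of 0.984, 0.983 and 0.978 over the 11 libraries). The microRNA features MIR3190 and MIR3191 overlap BBC3 and were listed at 0.

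PMAIP1 codes for NOXA, which binds mainly MCL1 and BFL-1, and lies on chromosome 18 from 57567192 to 57571538. WT libraries had 12.6 and 14.1 FPKM at 0 h, 20.3 and 15.1 FPKM at 6 h and 8.22 and 8.07 FPKM at 24 h. ΔCRE libraries had 9.05 FPKM at 0 h, 17.4 and 20.5 FPKM at 6 h and 6.63 and 5.72 FPKM at 24 h. The 4 libraries at 24 h were below all other libraries tested. PMAIP1 fell from 6 to 24 h by 1.02 in WT cells (SE 0.14, adjusted p 0.000506) and by 1.47 in ΔCRE cells (SE 0.14, adjusted p 6.94e-05). From 0 to 6 h it rose in ΔCRE cells (0.98, SE 0.17, adjusted p 0.00289). The WT change of 0.37 had an adjusted p of 0.0549, and it passed when WT 6 h replicate 2, the lower of the pair, was left out (adjusted p 0.0123) or the filter was set to 5 FPKM (adjusted p 0.0492). At 24 h PMAIP1 was below its 0 h level in WT cells (log2 change -0.65, adjusted p 0.00392). The corresponding ΔCRE change of -0.49 had an adjusted p of 0.0444 and lost its call without 1 of 7 libraries: WT 0 h replicate 1 or 2, WT 24 h replicate 1 or 2, ΔCRE 6 h replicate 1, or ΔCRE 24 h replicate 1 or 2. It was also lost without the filter (adjusted p 0.0908) and without the trend in limma (adjusted p 0.0503). The nearest patterns were those of RASEF, BEND3 and RAB21 (r of 0.965, 0.962 and 0.958), and 6 features had an r above 0.95.

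BCL2L11 codes for BIM, an activator of BAX and BAK1, and lies on chromosome 2 from 111878491 to 111926022. WT libraries had 3.24 and 3.48 FPKM at 0 h, 2.0 and 1.72 FPKM at 6 h and 1.28 and 1.56 FPKM at 24 h. ΔCRE libraries had 2.99 FPKM at 0 h, 2.16 and 1.67 FPKM at 6 h and 1.73 and 1.66 FPKM at 24 h. The 3 unstimulated libraries tested were the highest. BCL2L11 fell from 0 to 24 h in WT cells (log2 change -0.85, SE 0.11, adjusted p 0.000281) and in ΔCRE cells (-0.57, SE 0.13, adjusted p 0.00974). By 6 h it had already fallen in WT cells by 0.61 (adjusted p 0.00236) and in ΔCRE cells by 0.46 (adjusted p 0.0331). The ΔCRE call at 6 h was lost without ΔCRE 6 h replicate 2 (adjusted p 0.11), without the filter on low values (adjusted p 0.0533) and after quantile normalization (adjusted p 0.0597).

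BID, which caspase cleavage turns into an activator of BAX and BAK1, lies on chromosome 22 from 18216906 to 18257431. WT libraries had 29.4 and 29.9 FPKM at 0 h, 38.8 and 39.9 FPKM at 6 h and 32.2 and 31.3 FPKM at 24 h. ΔCRE libraries had 24.0 FPKM at 0 h, 29.4 and 30.3 FPKM at 6 h and 27.4 and 25.1 FPKM at 24 h. At each time point the ΔCRE libraries tested were below the WT libraries. BID rose from 0 to 6 h by 0.40 in WT cells (adjusted p 0.000691) and by 0.30 in ΔCRE cells (adjusted p 0.012), and it fell from 6 to 24 h by 0.30 in WT cells (adjusted p 0.00295). The ΔCRE fall of 0.18 (adjusted p 0.0272) lost its call without ΔCRE 6 h replicate 1, ΔCRE 6 h replicate 2 or ΔCRE 24 h replicate 2, after quantile normalization (adjusted p 0.182) and in separate fits (adjusted p 0.0936). The microRNA feature MIR3198-1 overlaps BID and was listed at 0.

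Of the effectors, BAK1 moved with time, and BAX passed the test in no comparison unless the libraries were quantile normalized. BAK1 lies on chromosome 6 from 33540323 to 33548070. WT libraries had 27.7 and 24.4 FPKM at 0 h, 49.5 and 45.3 FPKM at 6 h and 32.7 and 29.0 FPKM at 24 h. ΔCRE libraries had 27.5 FPKM at 0 h, 44.1 and 40.9 FPKM at 6 h and 30.8 and 28.4 FPKM at 24 h. The 4 libraries at 6 h were above all others tested. BAK1 rose from 0 to 6 h by 0.84 in WT cells (SE 0.089, adjusted p 0.000137) and by 0.61 in ΔCRE cells (SE 0.11, adjusted p 0.00382). From 6 to 24 h it fell by 0.61 in WT cells (adjusted p 0.000838) and by 0.51 in ΔCRE cells (adjusted p 0.00186). At 24 h against 0 h the WT change of 0.24 had an adjusted p of 0.0515, and it passed under 7 other settings, with a lowest adjusted p of 0.00144 with a replicate block.

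BAX lies on chromosome 19 from 49458117 to 49465055. WT libraries had 88.4 and 79.7 FPKM at 0 h, 91.7 and 91.3 FPKM at 6 h and 96.0 and 84.8 FPKM at 24 h. ΔCRE libraries had 78.2 FPKM at 0 h, 90.7 and 85.9 FPKM at 6 h and 94.9 and 86.2 FPKM at 24 h. The largest of its time changes was 0.21 in ΔCRE cells from 0 to 24 h, with a 95% interval from -0.016 to 0.43 and an adjusted p of 0.122. After quantile normalization that change was called (0.26, adjusted p 0.0228), as were the ΔCRE change from 6 to 24 h (0.19, adjusted p 0.0309) and the WT change from 0 to 24 h (0.16, adjusted p 0.048). The ratio of BAX to BAK1 was 3.18 and 3.27 in the WT libraries at 0 h, 1.85 and 2.01 at 6 h and 2.94 and 2.92 at 24 h, and is given with no test.

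**Figure D3:**
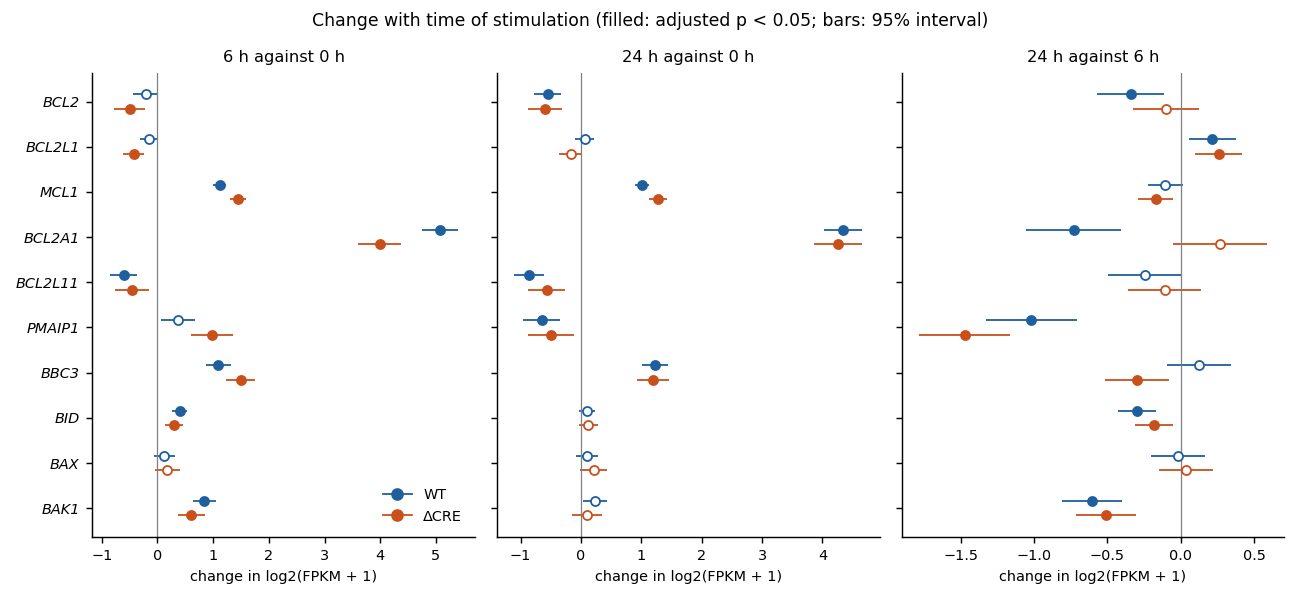
Changes in log2(FPKM + 1) between time points for each member, with 95% intervals from limma, WT in blue and ΔCRE in orange. Filled points have an adjusted p under 0.05. MCL1, BCL2A1 and BBC3 lie to the right of 0 in both genotypes at 6 h and at 24 h, and PMAIP1 is the farthest to the left from 6 to 24 h, at -1.02 in WT and -1.47 in ΔCRE cells.

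Counted over the 10 members, 5 were higher and 1 was lower at 6 h than at 0 h in WT cells, where 23.3% of all features were higher and 21.1% lower, 44.4% together. At 24 h against 0 h in WT cells 3 members were higher and 3 lower, beside 26.5% and 28.2% of all features and 54.6% together. Between 6 and 24 h in WT cells 1 member was higher and 5 were lower, beside 20.5% and 26.3%, or 46.8% together. In ΔCRE cells 6 members were higher and 3 lower at 6 h against 0 h, beside 16.8% and 13%, or 29.8% together. At 24 h against 0 h in ΔCRE cells 3 were higher and 3 lower, beside 20.6% and 21%, or 41.5% together. Between 6 and 24 h in ΔCRE cells 1 was higher and 5 were lower, beside 22.1% and 27.5%, or 49.6% together. Counts of 6 of 10 thus stood beside backgrounds of 41.5% to 54.6%, and the 9 of 10 called in ΔCRE cells at 6 h beside 29.8%. With a change of at least 2-fold also required, MCL1, BCL2A1 and BBC3 were higher in WT cells at 6 h, as were 2.82% of all features, and at 24 h against 0 h, as were 3.32%. MCL1, BCL2A1 and BBC3 also passed in ΔCRE cells at 6 h (2.35% of all features) and at 24 h (3.08%). BCL2A1 passed the filter only through the stimulated libraries, where it was high. Its place in the counts against 0 h, under either call rule, therefore lends them no support. PMAIP1 was the 1 member lower past 2-fold between 6 and 24 h, in WT cells (1.2%) and in ΔCRE cells (1.3%). The median change of the members from 0 to 6 h was 0.38 in WT cells and 0.46 in ΔCRE cells, beside -0.0014 and 0.0022 over all features tested. These medians include BCL2A1 and so lend no support to a rise of the members as a set. The ΔCRE median also rests on 1 unstimulated library.

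Rescaling each library to TPM moved the median of all features by -0.12 in WT cells and by -0.13 in ΔCRE cells from 0 to 6 h, and changed which direction was more common among all calls. In WT cells 52.5% of all calls were higher at 6 h, against 35.0% after rescaling. Between 6 and 24 h in WT cells the share went from 43.7% to 64.3%. In ΔCRE cells it went from 56.4% to 31.8% from 0 to 6 h and from 44.6% to 60.7% from 6 to 24 h. Between genotypes at 24 h the share of calls that were higher in ΔCRE cells went from 37.2% to 24.7%. Every called change of a member kept its direction under this rescaling. It removed the calls of BCL2 from 6 to 24 h in WT cells, of BID from 0 to 6 h in ΔCRE cells, of MCL1, BBC3 and BID from 6 to 24 h in ΔCRE cells, and of MCL1 between genotypes at 6 h (adjusted p 0.155).

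The comparison of ΔCRE with WT cells addressed which members differ in cells with this deletion. BCL2A1, BID and BCL2L1 were lower in ΔCRE cells at 6 h, MCL1 was higher, and BID was lower again at 24 h. These were 3 lower and 1 higher of 10 members at 6 h, where 6.22% of all features were lower and 3.62% higher, or 9.83% together. At 24 h 1 of 10 was lower, where 3.97% of all features were lower and 6.33% were called in either direction. At 0 h limma called 0 of the 10 members (1.69% of all features), and only 1 ΔCRE library entered that test. All 3 genotype comparisons use the libraries of the time comparisons, so their values are not independent of those above.

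BCL2A1 showed the largest genotype difference of the family. At 6 h it averaged 14.9 ± 0.888 FPKM in ΔCRE cells (SD, n = 2) and 35.3 ± 6.89 FPKM in WT cells (SD, n = 2), or 42.1% of the WT mean. The difference was -1.18 on the log2(FPKM + 1) scale (SE 0.14, 95% interval -1.5 to -0.86, adjusted p 0.00214). It was the 1 member past 2-fold, in a direction shared by 0.462% of all features. At 24 h the groups overlapped at 87.1% of the WT mean (-0.19, SE 0.14, adjusted p 0.506). The call at 6 h was kept when any 1 library was left out and was lost with a pseudocount of 0.1, at an adjusted p of 0.0611, and when ΔCRE 0 h replicate 1 was added to the fit.

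BID was at 75.9% of the WT mean at 6 h (-0.39, SE 0.056, adjusted p 0.00454) and at 82.6% at 24 h (-0.27, SE 0.056, adjusted p 0.029). At 0 h ΔCRE replicate 2 had 81.2% of the WT mean (-0.29, adjusted p 0.0843), which passed after quantile normalization (adjusted p 0.0466) and with a replicate block (adjusted p 0.0489). The call at 6 h was kept when any 1 library was left out. The call at 24 h was lost without WT 6 h replicate 1 or 2, WT 24 h replicate 1 or 2, or ΔCRE 24 h replicate 2, and in separate fits (adjusted p 0.129).

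BCL2L1 was at 80.6% of the WT mean at 6 h (-0.31, SE 0.069, adjusted p 0.0276) and at 83.1% at 24 h (-0.27, SE 0.069, adjusted p 0.063). The difference at 24 h was called after quantile normalization (adjusted p 0.0119), after rescaling to TPM (adjusted p 0.00911) and with a replicate block (adjusted p 0.0074). Its call at 6 h was lost without WT 6 h replicate 1 or 2, WT 24 h replicate 1 or 2, or ΔCRE 6 h replicate 2, and in separate fits (adjusted p 0.0655). MCL1 was at 115% of the WT mean at 6 h (0.20, SE 0.052, adjusted p 0.0499). That call was lost without any 1 of 9 of the 11 libraries, the exceptions being the WT 0 h libraries. It was also lost under 6 other settings of the same 11 libraries, with adjusted p from 0.0527 (a pseudocount of 0.1) to 0.192 (quantile normalization). At 24 h MCL1 was at 110% of the WT mean (0.13, SE 0.052, adjusted p 0.194).

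**Figure D4:**
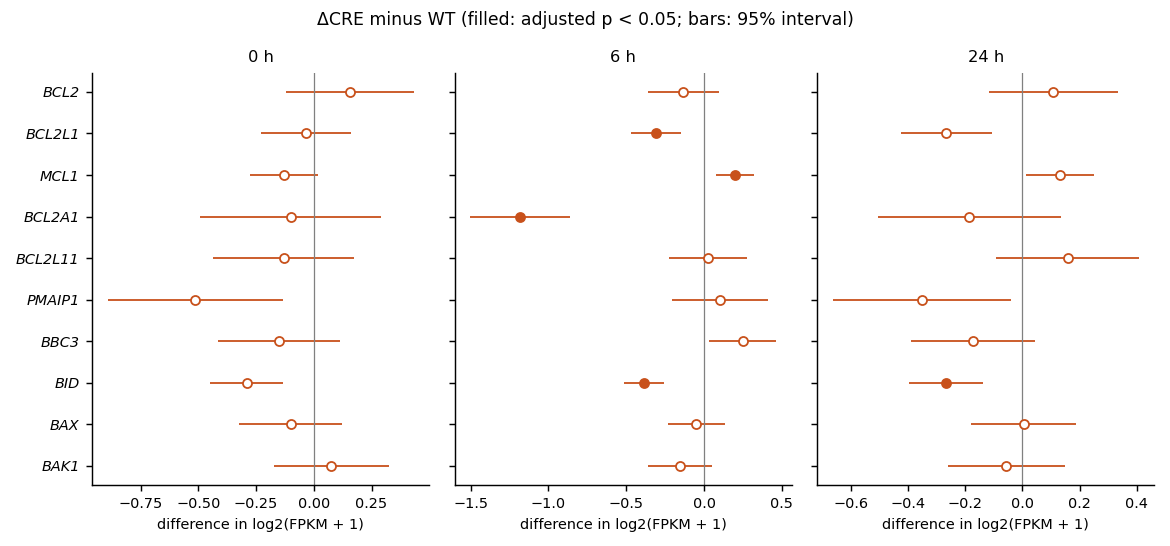
Difference between ΔCRE and WT cells in log2(FPKM + 1) for each member at 0, 6 and 24 h, with 95% intervals from limma. Filled points have an adjusted p under 0.05. At 0 h only ΔCRE replicate 2 was used. At 6 h BCL2A1 lies at -1.18, and BCL2L1, MCL1 and BID are the other filled points, while at 24 h BID is the only one.

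The 6 other members passed no genotype test, apart from BAK1 at 6 h with a replicate block (-0.15, adjusted p 0.0367). At 6 h the 95% interval of the difference was -0.36 to 0.093 for BCL2, -0.23 to 0.27 for BCL2L11 and -0.21 to 0.41 for PMAIP1. For BBC3 it was 0.033 to 0.46 with an adjusted p of 0.151. For BAX it was -0.23 to 0.13, and for BAK1 it was -0.36 to 0.05. At 24 h PMAIP1 was at 75.9% of the WT mean (-0.35, 95% interval -0.66 to -0.042, adjusted p 0.182). Both ΔCRE libraries were then below both WT libraries. At 0 h ΔCRE replicate 2 had 67.7% of the WT mean of PMAIP1 (-0.51). Differences of these sizes could not be told from the spread between libraries once adjusted over all features.

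Whether the time courses themselves differed between genotypes was tested as an interaction. From 0 to 6 h limma called 0 of the 10 members (0.267% of all features), with 1 ΔCRE library at 0 h. From 6 to 24 h it called 0 (0.16%), with 3 at an unadjusted p under 0.05, as were 786 of all 11256 features. For BCL2A1 the ΔCRE change from 0 to 6 h was smaller than the WT change by 1.08 (95% interval of the difference -1.59 to -0.57, adjusted p 0.17). From 6 to 24 h the ΔCRE change of BCL2A1 exceeded the WT change by 0.997 (interval 0.54 to 1.45, adjusted p 0.178). For MCL1 the ΔCRE rise exceeded the WT rise by 0.33 (interval 0.14 to 0.52, adjusted p 0.294). The interaction of ETS1 passed in both steps (adjusted p of 0.0291 and 0.0247).

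In ΔCRE 0 h replicate 1, kept out of every test above, the members had another profile. BCL2L1 was at 119 FPKM, MCL1 at 73.5 FPKM, BCL2A1 at 34.0 FPKM and BCL2 at 0.566 FPKM. Among BH3-only members BBC3 was at 17.1 FPKM, PMAIP1 at 5.04 FPKM, BCL2L11 at 2.70 FPKM and BID at 43.9 FPKM. The effectors stood at 143 FPKM for BAX and 36.6 FPKM for BAK1. BCL2 and PMAIP1 were lower there than in all 11 other libraries, and BBC3, BID and BAX were higher. The share of all features outside the range of the other 11 libraries was not counted.

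The chromosomal surroundings of the members were also read. Features within 5 Mb of BCL2A1 numbered 55, with a median genotype difference of -0.011 at 6 h, and 51 features within 5 Mb of BID had a median of 0.026. For BCL2L1 the median of 63 features was 0.015, and for MCL1 that of 118 features was 0.005. The median of all features tested was 0.013 at 6 h.

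Other genes of the pathway were read in further lists. Among 15 other BCL2 family proteins, 11 were tested. From 0 to 6 h 4 of these 11 were higher and 0 were lower in WT cells, with 7 not called, beside 23.3% and 21.1% of all features. At 24 h against 0 h 6 were higher and 1 lower in WT cells (26.5% and 28.2% of all features), and 5 were higher and 0 lower in ΔCRE cells (20.6% and 21%). Past 2-fold were BIK and BMF, both BH3-only proteins, and BNIP3, a mitophagy receptor. BIK and BMF, like BIRC3 of the next list, were under 1 FPKM in every unstimulated library tested and passed the filter through the stimulated libraries, where they were high, so their place among the genes called lends no support to a count. BMF had 0.262 and 0.17 FPKM in WT cells at 0 h and 3.07 and 3.14 FPKM at 24 h, a log2 change of 1.76. BIK had 0.148 and 0.31 FPKM in WT cells at 0 h and 2.96 and 2.33 FPKM at 24 h, a log2 change of 1.57. BNIP3 rose in WT cells from 39.8 and 40.8 FPKM at 0 h to 111 and 103 FPKM at 24 h (1.39, SE 0.071, adjusted p 1.90e-06). BCL2L10, HRK, BCL2L14 and BCL2L15 were at or near 0 in the 11 libraries, with a mean of at most 0.099 FPKM. The row for BCL2L2 also names PABPN1, so its values cannot be assigned to BCL2L2 alone.

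Of 6 caspase inhibitors, 3 were higher and 1 lower at 6 h in each genotype, beside 23.3% and 21.1% of all features in WT cells and 16.8% and 13% in ΔCRE cells. Their median change in WT cells was 0.32, against -0.0014 over all features. That median includes BIRC3, which passed the filter through the stimulated libraries, so it lends no support to a rise of the list. BIRC3 and BIRC2 code for cIAP2 and cIAP1, which restrain death receptor signalling and feed into NF-κB. BIRC3 was at 0.263 and 0.435 FPKM in WT cells at 0 h, 46.4 and 51.6 FPKM at 6 h and 4.2 and 4.46 FPKM at 24 h. It rose to 6 h by 5.21 in WT cells (adjusted p 6.61e-09) and by 5.36 in ΔCRE cells (adjusted p 3.02e-08). The WT rise of BIRC2 at 6 h was 1.42 (adjusted p 2.58e-05). BIRC5, which codes for survivin, fell from 0 to 24 h in both genotypes, by 0.99 in WT cells (adjusted p 3.97e-06) and by 1.03 in ΔCRE cells (adjusted p 1.44e-05). It went from 74.5 and 68.9 FPKM to 34.9 and 36.3 FPKM in WT cells, and from 81.2 FPKM to 39.6 and 38.6 FPKM in ΔCRE cells. Of 6 genes for the mitochondrial channel and for partners of MCL1 or BAK1, 1 was higher and 0 were lower at 6 h in each genotype, and at 24 h against 0 h 0 were higher and 2 lower. Of all features, 23.3% in WT and 16.8% in ΔCRE cells were higher at 6 h, and 28.2% and 21% were lower at 24 h.

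Of 14 listed genes of cell cycle arrest, DNA repair and the stress response, 13 were tested. At 6 h against 0 h, 5 rose and 4 fell in WT cells, beside 23.3% and 21.1% of all features, and 6 rose and 2 fell in ΔCRE cells, beside 16.8% and 13%. At 24 h against 0 h, 4 rose and 7 fell in WT cells (26.5% and 28.2% of all features), while 5 rose and 4 fell in ΔCRE cells (20.6% and 21%). The median change in WT cells was 0.20 at 6 h and -0.25 at 24 h, against -0.0014 and -0.020 over all features. RRM2B, DDB2, SESN1 and FDXR were the 4 lower in WT cells at 6 h (-0.92, -0.75, -0.57 and -0.32), named after their values were seen. In all, 4 genes of the list passed 2-fold in a time comparison, each of them upward from 0 h. From 6 to 24 h 2 genes of the list were lower past 2-fold in each genotype, beside 1.2% of all features in WT and 1.3% in ΔCRE cells. CDKN1A, the p21 cell cycle inhibitor, went in WT cells from 12.8 and 12 FPKM at 0 h to 129 and 125 FPKM at 6 h (log2 change 3.26, adjusted p 2.60e-09). At 24 h it was at 48.4 and 47.5 FPKM. GADD45A, TNFRSF10B (a receptor for TRAIL) and SESN2 were the others of the 4, GADD45A and TNFRSF10B at 6 h in both genotypes. In WT cells GADD45A was at 8.57 and 6.87 FPKM at 0 h and at 8.44 and 8.36 FPKM at 24 h. In GADD45A the rise at 6 h was 1.24 in WT cells and 1.88 in ΔCRE cells, with adjusted p of 3.05e-05 and 1.36e-05.

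**Figure D5:**
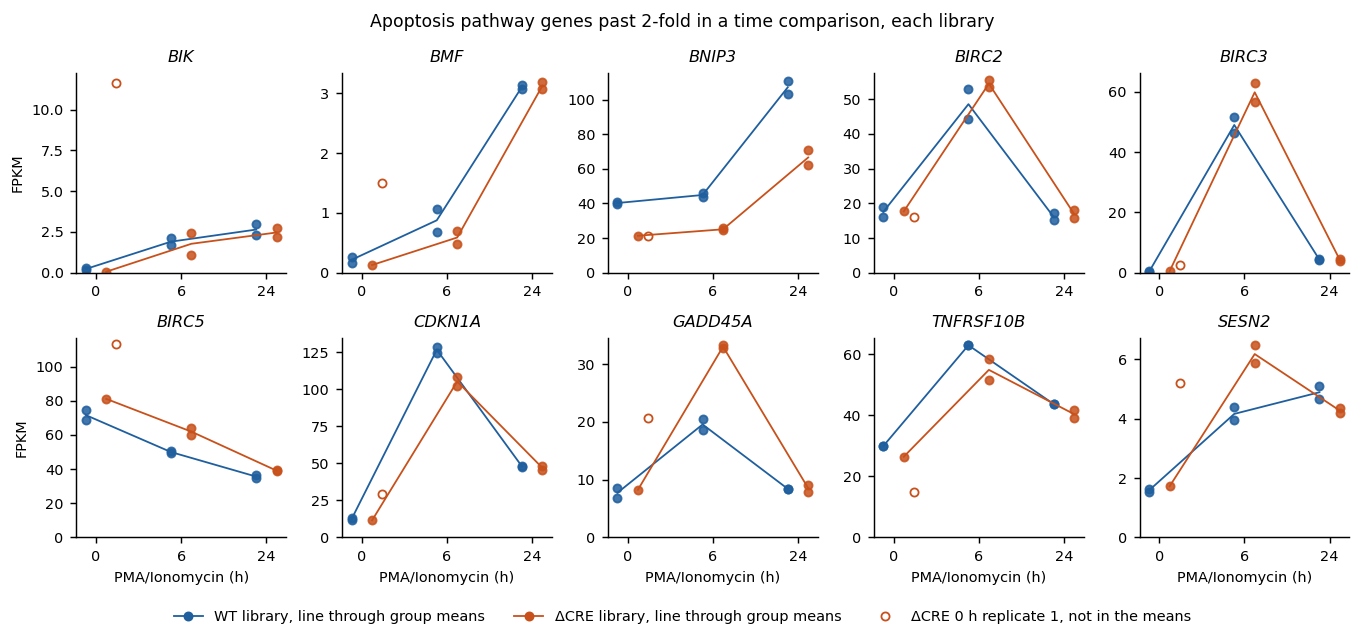
FPKM (vertical axes, linear and starting at 0) of the 10 listed pathway genes past 2-fold in a time comparison, against hours of PMA/Ionomycin, with 1 point per library and lines through group means. WT is blue, ΔCRE is orange, and the open circle is ΔCRE 0 h replicate 1. BIRC3 and CDKN1A peak at 6 h in both genotypes, and BMF and BNIP3 are highest at 24 h.

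Between genotypes none of the pathway genes named here reached 2-fold. Those called, chosen after their values were seen, fell partly in stretches of chromosome where neighbouring features differed in the same direction. BNIP3 on chromosome 10 was lower in ΔCRE cells at 0, 6 and 24 h (-0.88, -0.81 and -0.68), and 17 features within 5 Mb of it had a median difference of -0.27 at 6 h. VDAC2, the mitochondrial channel that holds BAK1, was higher at 6 h (0.47, adjusted p 0.0174), beside a median of 0.32 for 51 features around it. BNIP3L on chromosome 8 was lower (-0.39), beside -0.18 for 55 features. GADD45A, SESN2 and BIRC5 were higher and CDKN1A lower at 6 h, with medians around each of these between -0.016 and 0.025. DDB2 was higher at 24 h (0.39). The part of these stretches in the differences was not tested.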

How the data were processed

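RNA of WT and ΔCRE cells was sequenced after 0, 6 and 24 h of stimulation (stranded mRNA libraries, Illumina NextSeq). The authors mapped reads to hg19 with TopHat and deposited FPKM values estimated with Cufflinks, 1 column per library. The submitters' processing notes also name FastQC, cutadapt, Bowtie and Cuffdiff. The annotation and any scaling between libraries are not given in the sources used here. Groups and replicate numbers come from the sample labels. The columns read as ΔCRE 6 h and ΔCRE 0 h replicate 2 carry a digit where other names have a letter. Of the features, 405 name more than 1 gene. Locus starts were raised by 1 to count from 1.

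FPKM keeps no counts, so total depth is unknown and no counting interval was computed. By the most common ratio between the low values of 2 libraries, held by 26.6% to 32.7% of low features in the libraries tested, 1 read was worth 0.838 to 1.37 times as much FPKM as in WT 0 h replicate 1. It was worth most at ΔCRE 6 h (1.37 and 1.22 times), which had the lowest relative depth unless the authors scaled the libraries further.

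From FPKM, log2(FPKM + 1) was fitted, leaving out ΔCRE 0 h replicate 1, with limma 3.58.1 in R 4.3.3 (lmFit, eBayes with a trend, 1 model of 6 groups) for 11256 features with a mean of at least 1 FPKM, with Benjamini-Hochberg adjustment. The fit was tested on simulated data (11256 features, 200 of them moved by 1 on the log2 scale): over the 11 comparisons it recovered 77.0% to 99.5% of those moved, and 3.0% to 5.6% of its calls were false. The noise was normal and independent, with the fitted spread of each feature, so the assumptions of the fit held by construction. Features as low as BCL2 were not among those moved. Other settings tried were all 12 libraries, TPM, quantile normalization, separate fits, no filter or one at 5 FPKM, a pseudocount of 0.1, a replicate block, eBayes without its trend, a 2-fold minimum and each library left out.

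The members and lists were chosen with earlier results of these data known. Named were the 10 members, ETS1, listed pathway genes called with at least 2-fold or at or near 0, and for the 3 members of largest range the 3 features of most similar pattern. The motifs, the genes within 5 Mb, the ratios between members and the pathway genes named between genotypes were chosen after values were seen. Some listed pathway genes and the counts of 1 list are not reported here, and 1 list is counted without a gene. Promoters came from RefSeq (GRCh38.p14). Python 3.11.15 with pandas 2.3.3 and matplotlib 3.10.9 did the rest.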

Additional observations from a re-analysis of the deposited data

Results flagged for a closer look

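The library labelled ΔCRE 0 h replicate 1 entered no comparison, and 6 members were above both WT 0 h libraries in it. Its summed FPKM was 1.42e+06, against at most 651080 in the other 11. The share of all features above both WT 0 h libraries was not counted, so the count of members stands without a background. MCL1 was at 73.5 FPKM against at most 62.7 FPKM in WT cells at 0 h, and BCL2A1 at 34.0 FPKM against at most 0.15 FPKM. BAK1 was at 36.6 FPKM against at most 27.7 FPKM. BBC3 was at 17.1 FPKM, BID at 43.9 FPKM and BAX at 143 FPKM, each above all 11 other libraries, whose highest values were 8.26, 39.9 and 96.0 FPKM. Markers of gut epithelium summed to 3445 FPKM in that library against at most 0.318 FPKM elsewhere, and their part in the members' values was not tested.

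BCL2A1 and BBC3 were the members whose libraries moved in opposite directions in the 2 genotypes from 6 to 24 h. For BCL2A1 both WT libraries were lower at 24 h than at 6 h and both ΔCRE libraries were higher, and the interaction in limma was 0.997 with an unadjusted p of 0.000879 and an adjusted p of 0.178. For BBC3 the WT libraries were higher and the ΔCRE libraries lower at 24 h, and the interaction was -0.42 with an unadjusted p of 0.0125 and an adjusted p of 0.519. Neither passed the correction over all features. The ΔCRE change of BCL2A1 (0.27, adjusted p 0.147) and the WT change of BBC3 (0.12, adjusted p 0.309) were themselves not called in limma. The share of all features whose libraries moved in opposite directions was not counted.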

How the results depend on the processing

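Adding the library labelled ΔCRE 0 h replicate 1 changed most. With 12 libraries in place of 11 the members called went from 6 to 3 for WT 6 h against 0 h, 6 to 2 for WT 24 h against 0 h, 6 to 0 for WT 24 h against 6 h, 9 to 2 for ΔCRE 6 h against 0 h, 6 to 1 for ΔCRE 24 h against 0 h, 6 to 1 for ΔCRE 24 h against 6 h, 4 to 0 for the genotypes at 6 h and 1 to 0 at 24 h. Features called at 6 h between genotypes went from 1107 to 20, and those at 24 h from 712 to 17. Those for WT 6 h against 0 h went from 4993 to 857, and for WT 24 h against 0 h from 6151 to 1221. Between 6 and 24 h they went from 5267 to 582 in WT cells and from 5586 to 845 in ΔCRE cells. With 12 libraries, of 11676 features, 1011 were called for ΔCRE 6 h against 0 h and 1302 for 24 h against 0 h. Log2 changes that turned their sign with 12 libraries were BID (-0.12) and BAX (-0.26) in ΔCRE cells at 6 h against 0 h, and BBC3 (-0.043), BID (-0.30), BAX (-0.22) and BAK1 (-0.097) at 24 h against 0 h. Between genotypes at 0 h they were BCL2 (-0.29), MCL1 (0.067), BCL2A1 (2.46), BBC3 (1.09), BID (0.13) and BAX (0.33), and in the interaction from 0 to 6 h BCL2 (0.16), BBC3 (-0.84) and BAX (-0.38). Of these only BID at 6 h and BBC3 at 24 h in ΔCRE cells were called without that library.

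Requiring 2-fold left 3, 3, 1, 3, 3, 1, 1 and 0 members in the same order of comparisons, with the genotypes at 6 and 24 h last. Rescaling to TPM left 3 members for ΔCRE 24 h against 6 h and gave 2 (BID and BCL2L1) between genotypes at 24 h, as quantile normalization also did, and quantile normalization gave 1 at 0 h. A pseudocount of 0.1 and separate fits each left 2 members at 6 h between genotypes, and separate fits left 0 at 24 h. With separate fits, 364 features in place of 1107 were called between genotypes at 6 h, and 132 in place of 712 at 24 h. After quantile normalization MCL1 turned to 0.058 in WT cells and 0.00068 in ΔCRE cells from 6 to 24 h, BAX to 0.13 in WT cells, and BAX to -0.021 between genotypes at 24 h. After rescaling to TPM, MCL1 turned to 0.013 and BAX to 0.098 in WT cells from 6 to 24 h, and BAX to -0.0196 between genotypes at 24 h. The cause of these shifts was not tested.

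Without ΔCRE 0 h replicate 2 the comparisons with ΔCRE 0 h had no value. Leaving out 1 library at a time otherwise gave between 2 and 6 members for ΔCRE 24 h against 6 h, between 2 and 4 for the genotypes at 6 h and between 0 and 1 at 24 h. Values that crossed 0 were not called: BCL2L1 in WT cells at 24 h against 0 h (-0.00447 to 0.13) and between genotypes at 0 h (-0.10 to 0.031), BAX from 6 to 24 h in WT (-0.11 to 0.068) and ΔCRE cells (-0.033 to 0.10), BCL2L11 from 6 to 24 h in ΔCRE cells (-0.23 to 0.011), BAK1 between genotypes at 0 h (-0.014 to 0.17) and 24 h (-0.14 to 0.026), BCL2L11 (-0.098 to 0.14) and PMAIP1 (-0.10 to 0.30) at 6 h, and BAX at 24 h (-0.084 to 0.092). Among interactions these were BAX from 0 to 6 h (-0.025 to 0.12) and from 6 to 24 h (-0.032 to 0.14) and BCL2L1 from 6 to 24 h (-0.022 to 0.11).

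What the replicate numbers stand for is not given in the sources used here. The correlation of same-numbered deviations lay between -0.068 and 0.20 over 10 pairs of groups. That cannot decide whether libraries of the same number share a batch or a pairing. With a replicate block, 1 member (BID) was called between genotypes at 0 h, BAK1 was added at 6 h and BCL2L1 at 24 h, 655 features were called in place of 190 at 0 h, 1805 in place of 1107 at 6 h and 1407 in place of 712 at 24 h, and BCL2L1 between genotypes at 0 h became 0.011 and the BAX interaction from 0 to 6 h -0.00556. FPKM without counts limits the low members: BCL2, BCL2L11 and BBC3 at a few FPKM and BCL2A1 at 0 h.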
